A study of Mus musculus with 6 samples.

Results

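The interferon-induced p200 family, also called the HIN-200 or PYHIN family, was followed as the 9 genes Ifi203, Ifi204, Ifi205, Ifi207, Ifi209, Ifi211, Ifi213, Mnda and Mndal. Members were the rows of the expression table whose gene name equalled one of these, which gave 8 of the 9 genes, out of 15415 genes listed. Mnda had no row of its own, and RefSeq gives Mnda as another name of Ifi211, so no separate value is given for it. All 8 remaining members passed the filter on low values and were among the 9030 genes tested.

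RNA was sequenced from peritoneal macrophages (PEMs) in 6 libraries, 3 labelled PEM-CKO (knockout) and 3 labelled PEM-Control (control), and every library carries the treatment entry lps. In the study's methods, conditional knockout mice are LysM-Cre; Tim-4 fl/fl on C57BL/6J, in which Cre expressed from the lysozyme M locus of myeloid cells removes the loxP-flanked part of the Tim-4 gene (Timd4), and control mice are Tim-4 fl/fl without Cre. By the methods, all experiments used male mice of 6 to 8 weeks, and PEMs were harvested 3 days after an intraperitoneal injection of 6% starch. The methods also describe activation of PEMs with 1 µg/ml LPS for 3.5 h. They do not state whether the sequenced cells had this dose and time. Groups follow the titles, because the genotype entry of the labels names them the other way round. Nothing says whether libraries of a group came from separate mice, so p-values measure the spread between these libraries.

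Proteins of the p200 family carry a DNA-binding HIN domain, and most of the mouse members join it to a pyrin domain, which pairs with pyrin domains of other proteins. The best known relative, Aim2, binds double-stranded DNA in the cytosol and assembles an inflammasome through the adaptor ASC. The genes lie side by side in a cluster on mouse chromosome 1, differ in number between strains and species, and are classical targets of type I interferon in macrophages, where the ISGF3 complex binds interferon-stimulated response elements (ISREs) in their promoters.

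The promoters are shown first, because the members are known as a group of interferon targets. RefSeq promoter windows (GRCm38.p6, 250 bases before to 50 bases after each annotated start) were found for 7 of the 8 listed members, all but Ifi204. The stretch GAAANNGAA, the core of an ISRE, was searched on both strands and occurred in 6 of these 7 members, against 8.56% of the 32851 mouse promoter windows of the same length. In all 6 members a match lay on the gene's own strand, with its first base between 35 (Ifi203) and 134 (Ifi205) bases before the start. The windows below hold this match in capitals with the 15 bases on each side.
Ifi203 (chr1:173942504-173942542, minus strand): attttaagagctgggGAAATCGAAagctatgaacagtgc
Mndal (chr1:173880200-173880238, minus strand): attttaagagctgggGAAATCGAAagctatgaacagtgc
Ifi205 (chr1:174031866-174031904, minus strand): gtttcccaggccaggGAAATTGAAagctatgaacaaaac
Ifi211 (chr1:173913060-173913098, minus strand): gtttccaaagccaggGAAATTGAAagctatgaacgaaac
Ifi207 (chr1:173741827-173741865, minus strand): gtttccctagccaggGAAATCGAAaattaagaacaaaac
Ifi213 (chr1:173599322-173599360, minus strand): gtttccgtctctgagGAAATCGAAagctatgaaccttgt
Ifi209 (chr1:173630765-173630803, plus strand): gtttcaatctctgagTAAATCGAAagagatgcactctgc
The windows of Ifi203 and Mndal were identical over all 39 bases, and those of Ifi205 and Ifi211 shared 36 of 39. Ifi209 is shown as the member without a match. Its closest stretch, in capitals, differed from the core by the single substitution G1T, with positions counted from 1 at the 5′ end of the core. RefSeq gives a further start for Ifi203, whose window held no match, and a further start for Mndal and a position 24 bases after the start of Ifi205, each with a match on the opposite strand. The interferon-gamma-activated sequence TTCNNNGAA was found in none of the 7 members, against 8.30% of all windows. The ETS core GAGGAA was found in 1 of the 7 members, Ifi213, where it overlaps the ISRE core, and in 4 of 5 relatives with a window, against 28.3% of all windows. These matches describe letters and not occupancy, which was not measured.

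The whole promoter window of Ifi207 is printed because Ifi207 was the member past the test between knockout and control. It spans chr1:173741760-173742059 on the minus strand of GRCm38.p6, with the ISRE core in capitals beginning 41 bases before the start.
Ifi207: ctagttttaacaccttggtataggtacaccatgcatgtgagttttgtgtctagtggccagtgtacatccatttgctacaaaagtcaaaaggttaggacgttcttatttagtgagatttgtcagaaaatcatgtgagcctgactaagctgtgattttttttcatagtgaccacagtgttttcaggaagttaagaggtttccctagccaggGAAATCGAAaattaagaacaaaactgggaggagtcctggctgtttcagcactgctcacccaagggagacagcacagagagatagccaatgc

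Levels are given as FPKM, reads scaled to gene length and to the total counted in the library, so genes can be compared per length. Ifi204, which binds DNA and is often set beside human IFI16, was the most abundant member in all libraries but control 3. Its FPKM was 461 in knockout 1, 461 in knockout 2, 302 in knockout 3, 309 in control 1, 251 in control 2 and 96.7 in control 3. In the knockout group Ifi204 was followed by Ifi205 (349 ± 120 FPKM, SD, n = 3), Ifi211 (290 ± 39.0), Ifi209 (250 ± 56.3), Ifi207 (203 ± 23.1), Ifi203 (142 ± 33.7), Mndal (109 ± 29.6) and Ifi213 (16.9 ± 3.33). The ranges of neighbours in this order overlapped except between Ifi207 and Ifi203 and between Mndal and Ifi213. In the control group the order was Ifi204 (219 ± 110 FPKM), Ifi211 (183 ± 50.0), Ifi205 (159 ± 76.0), Ifi209 (121 ± 65.9), Ifi207 (105 ± 28.4), Ifi203 (84.5 ± 50.0), Mndal (78.6 ± 47.0) and Ifi213 (10.7 ± 6.51). There, only Mndal and Ifi213 had ranges that did not overlap. Ifi211 and Ifi205 therefore changed places between the groups without standing apart from each other in either. Ifi213 was the lowest member in each of the 6 libraries.

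**Figure D1:**
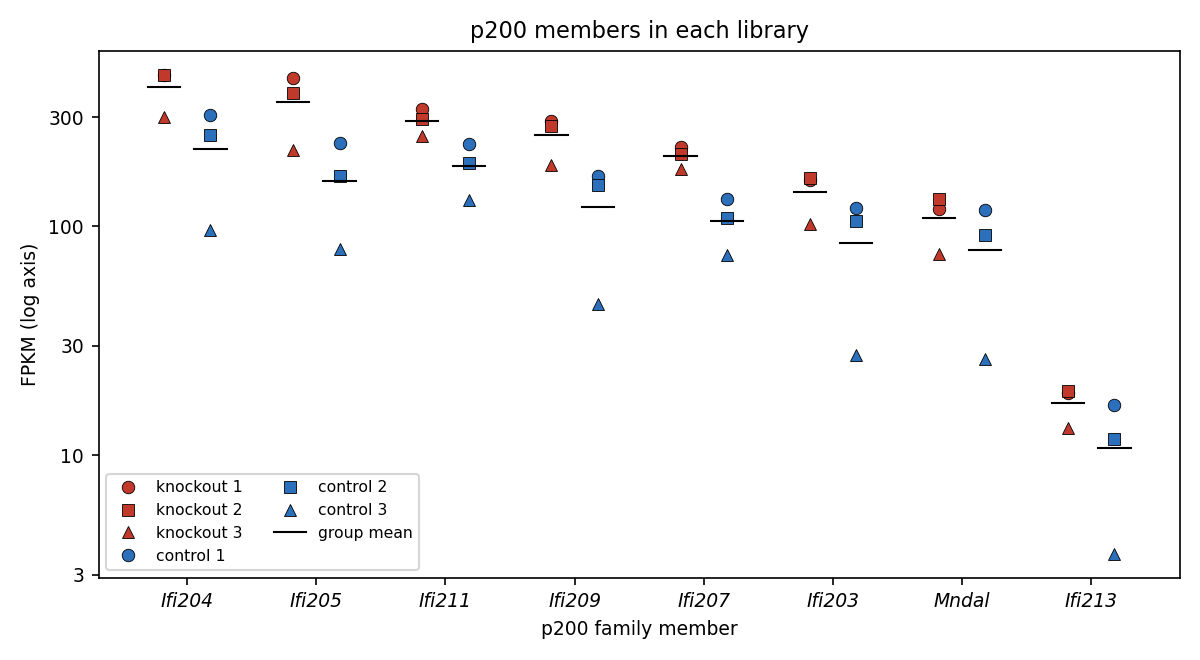
FPKM of the 8 listed members in each of the 6 libraries on a log axis, with knockout libraries in red, control libraries in blue, 1 marker shape per replicate number and a black line at each group mean. Control 3 is the lowest library for all 8 members, and knockout 1 or 2 the highest.

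Together the members held between 51643 reads in control 3 and 263330 reads in knockout 1, which is 0.143% and 0.627% of the reads counted in those libraries. Ifi213 had the fewest reads, from 1120 in control 3 to 6726 in knockout 2. The libraries held 36170767 to 42217558 reads.

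Ifi207 was higher in the knockout than in the control PEMs. Its FPKM was 224, 207 and 178 in knockout 1 to 3 and 132, 108 and 75.3 in control 1 to 3. Every knockout library lay above every control library, and the ratio of the group means was 1.93. The log2 fold change of FPKM + 1 was 0.97 (SE 0.22, 95% interval 0.46 to 1.48), with an adjusted p of 0.0425 from limma over all genes tested. Ifi207 was the 1 member of 8 called higher at an adjusted p below 0.05, beside 2.57% of all genes tested, and 0 members were called lower, beside 4.74%. No member had an unadjusted p below 0.05 in the lower direction, and voom on recovered reads called 0 members in either direction. Over 13 other settings the adjusted p of Ifi207 ranged from 0.0222 to 0.168 and its log2 fold change from 0.75 to 1.15. The call was lost under 7 of them, with no filter on low values (0.0712), after rescaling by the median of ratios (0.0576), with voom (0.0622), and without knockout 1 (0.165), knockout 2 (0.168), knockout 3 (0.0647) or control 2 (0.143).

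Ifi209 and Ifi211 also had every knockout library above every control library, and their test depended on the pairing of libraries. Ifi209 measured 289, 276 and 186 FPKM in knockout 1 to 3 and 167, 152 and 45.9 FPKM in control 1 to 3. Knockout 3 lay closer to control 1 than to the other knockout libraries. The log2 fold change of Ifi209 was 1.21 (SE 0.48, 95% interval 0.09 to 2.33, adjusted p 0.156 from limma), the largest of the members. Ifi211, in whose RefSeq record Mnda is a synonym, measured 326, 294 and 249 FPKM in knockout 1 to 3 and 229, 190 and 130 FPKM in control 1 to 3. After Ifi207, it varied least within the groups, with a coefficient of variation of 13.5% in the knockout and 27.3% in the control libraries. The log2 fold change of Ifi211 was 0.69 (SE 0.22, 95% interval 0.16 to 1.22, adjusted p 0.105 from limma). In all, 3 of 8 members had every knockout library above every control library, as did 11.1% of all genes tested, and for each of the 3 the two-sided exact permutation test gave 0.1, the smallest p that 3 libraries against 3 allow.

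Ifi204 and Ifi205 had 1 knockout library within the control range. The log2 fold change of Ifi204 was 1.03 (SE 0.42, 95% interval 0.03 to 2.02, adjusted p 0.170 from limma), and knockout 3 at 302 FPKM lay just under control 1 at 309 FPKM. Ifi205, a member linked in macrophages to the control of Pycard (ASC) expression, measured 448, 384 and 216 FPKM in knockout 1 to 3 and 231, 166 and 79.5 FPKM in control 1 to 3. Its group means stood 2.20-fold apart, the largest ratio among the members. The log2 fold change of Ifi205 was 1.20 (SE 0.42, 95% interval 0.20 to 2.19, adjusted p 0.125 from limma). Ifi204, Ifi205, Ifi207, Ifi209 and Ifi211 were the 5 members with an unadjusted p below 0.05, a level that 2494 of the 9030 genes reached.

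Ifi203 and Mndal, and the less abundant Ifi213, also overlapped between the groups, each through knockout 3 as in Ifi204 and Ifi205. Ifi203 measured 159, 163 and 103 FPKM in knockout 1 to 3 and 121, 105 and 27.4 FPKM in control 1 to 3, and the log2 fold change was 0.96 (SE 0.53, limma adjusted p 0.282). Mndal measured 120, 133 and 76.1 FPKM in knockout 1 to 3 and 118, 91.7 and 26.4 FPKM in control 1 to 3, and the log2 fold change was 0.68 (SE 0.53, limma adjusted p 0.435). In both genes knockout 3 lay below control 1 and control 2, and control 3 lay far below the other 5 libraries. Ifi213 measured 18.7, 19.0 and 13.1 FPKM in knockout 1 to 3 and 16.6, 11.8 and 3.70 FPKM in control 1 to 3, and the log2 fold change was 0.80 (SE 0.46, limma adjusted p 0.296). The 95% intervals of these 3 members reached from -0.56 (Mndal) to 2.21 (Ifi203) and included 0.

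All 8 members had a positive log2 fold change, as did 3297 of the 9030 genes tested. Their median was 0.97, with a range of 0.68 to 1.21, against a median of -0.11 over all genes tested. Without control 3 the members' median was 0.49. Rescaling the libraries by the median of ratios moved the median of all genes to 0.01 and that of the members to 1.11, so that the members stood 1.08 above the median of all genes before and 1.10 after rescaling. The calls over all genes were split into 232 higher and 428 lower before rescaling and 343 higher and 326 lower after it. With the replicate number as a block, 5 of 8 members were called higher, beside 3.90% of all genes tested. The blocked adjusted p from limma was 0.0161 for Ifi205, 0.0235 for Ifi207, 0.0445 for Ifi209, 0.0447 for Ifi211 and 0.0460 for Ifi204. For Ifi203, Ifi213 and Mndal it was 0.0974, 0.120 and 0.170. Nothing in the labels says that same-numbered libraries are pairs, and the values do not establish it. The correlations of deviations were 0.109, 0.110 and 0.304 for same numbers, and 0.291 for knockout 2 with control 1. The block therefore rests on an assumed pairing, as described with the processing.

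**Figure D2:**
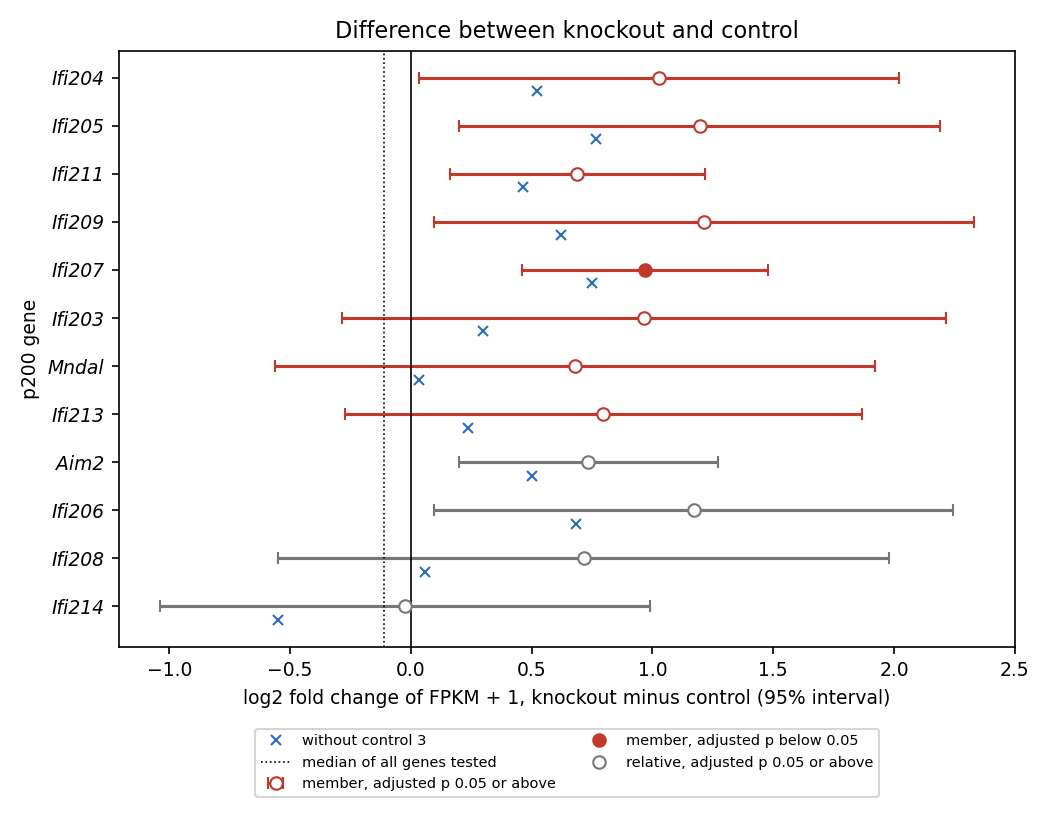
Log2 fold change of FPKM + 1, knockout minus control, for the 8 members (red) and 4 tested relatives (grey), with 95% intervals from limma. Filled points have an adjusted p below 0.05, blue crosses give the value without control 3 and the dotted line marks the median of all genes tested. Only Ifi207 is filled, and Mndal without control 3 lies at 0.04.

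The third replicate of each group stood below the others in this family. Control 3 was the lowest of the 6 libraries in 8 of 8 members, which was so in 13.3% of all genes tested, and knockout 3 was the lowest knockout library in 8 of 8 members, against 20.0% of all genes tested. Control 3 held 24.3% (Ifi203) to 62.7% (Ifi207) of the mean of control 1 and control 2. Ifi211 (62.0%) stood beside Ifi207, and Mndal (25.2%), Ifi213 (26.1%) and Ifi209 (28.8%) stood beside Ifi203. Knockout 3 held 51.9% (Ifi205) to 82.7% (Ifi207) of the mean of knockout 1 and knockout 2. Control 1 was above control 2 in 8 of 8 members as well, against 3432 of all 9030 genes tested. Over all genes tested, control 3 had a mean correlation of 0.958 with the other control libraries, against 0.966 for control 1, 0.975 for control 2 and 0.987 to 0.990 for the knockout libraries.

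**Figure D3:**
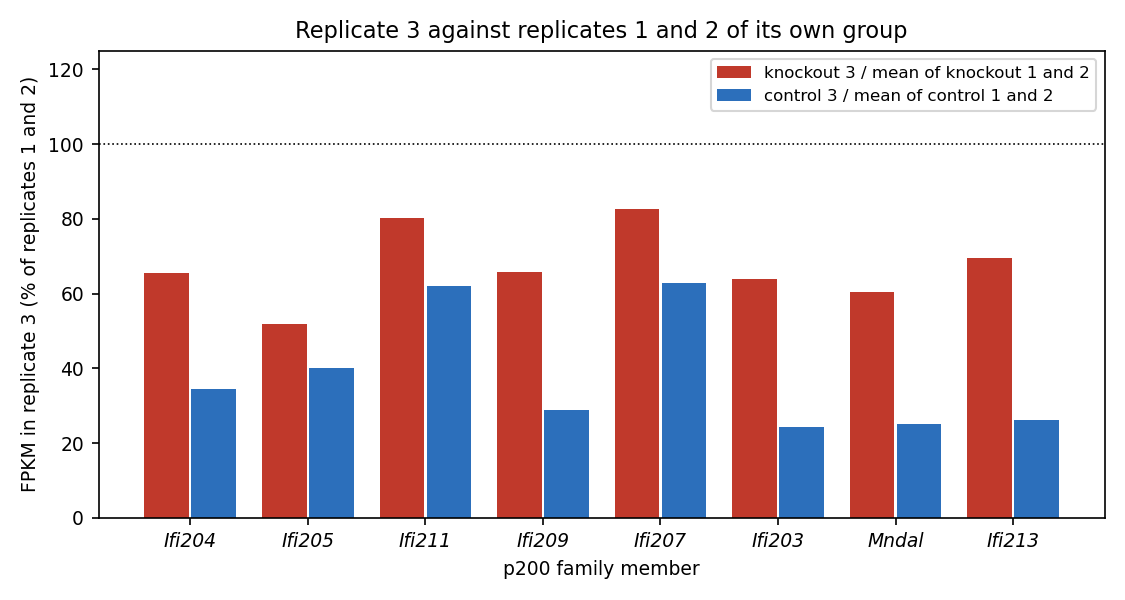
FPKM of each member in replicate 3 as a percentage of the mean of replicates 1 and 2 of the same group, for the knockout (red bars) and control group (blue bars). Each bar lies under 100%, and the control bar is lower than the knockout bar for each member.

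Without control 3, Ifi207 kept its call, with a log2 fold change of 0.75 and an adjusted p of 0.0256 from limma, as the 1 member of 8 called higher beside 5.68% of all genes tested. The log2 fold changes of the other members were then 0.77 for Ifi205, 0.62 for Ifi209, 0.52 for Ifi204, 0.46 for Ifi211, 0.30 for Ifi203, 0.24 for Ifi213 and 0.04 for Mndal, each with an adjusted p above the threshold. The members then ranged from 0.04 to 0.77 around their median of 0.49, against a median of -0.06 over all genes tested. Knockout 3, the lowest knockout library in the members, is kept in that fit. Leaving out replicate 3 of both groups, an alternative chosen after the values were seen, gave 4 members called higher, beside 5.69% of all genes tested. These were Ifi209 (log2 fold change 0.82, adjusted p 0.0159 from limma), Ifi207 (0.84, 0.0222), Ifi205 (1.08, 0.0232) and Ifi204 (0.73, 0.0345). The members' median was then 0.65, with Mndal lowest at 0.28, against -0.10 over all genes tested.

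The make-up of the family was also compared as the share of each member in the summed FPKM of the 8 members. The sum was 2045, 1936 and 1322 FPKM in knockout 1 to 3 and 1323, 1075 and 485 FPKM in control 1 to 3. Ifi204 took 19.9% to 23.8% of it in every library. Ifi211 took 15.2% to 18.8% in the knockout libraries and 17.3%, 17.6% and 26.8% in control 1 to 3, and in control 3 it replaced Ifi204 as the most abundant member. Ifi209 took 14.0% to 14.2% in the knockout libraries and 12.6%, 14.1% and 9.46% in control 1 to 3. Ifi205 took 21.9% and 19.8% in knockout 1 and 2, and 15.4% to 17.5% in the other libraries. The two-sided exact permutation p for a difference in share between the groups was lowest for Ifi209, at 0.2, and ranged up to 1 for Ifi203 and Ifi207, where 3 libraries against 3 cannot give a p below 0.1, so these tests could not have shown a difference in make-up.

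**Figure D4:**
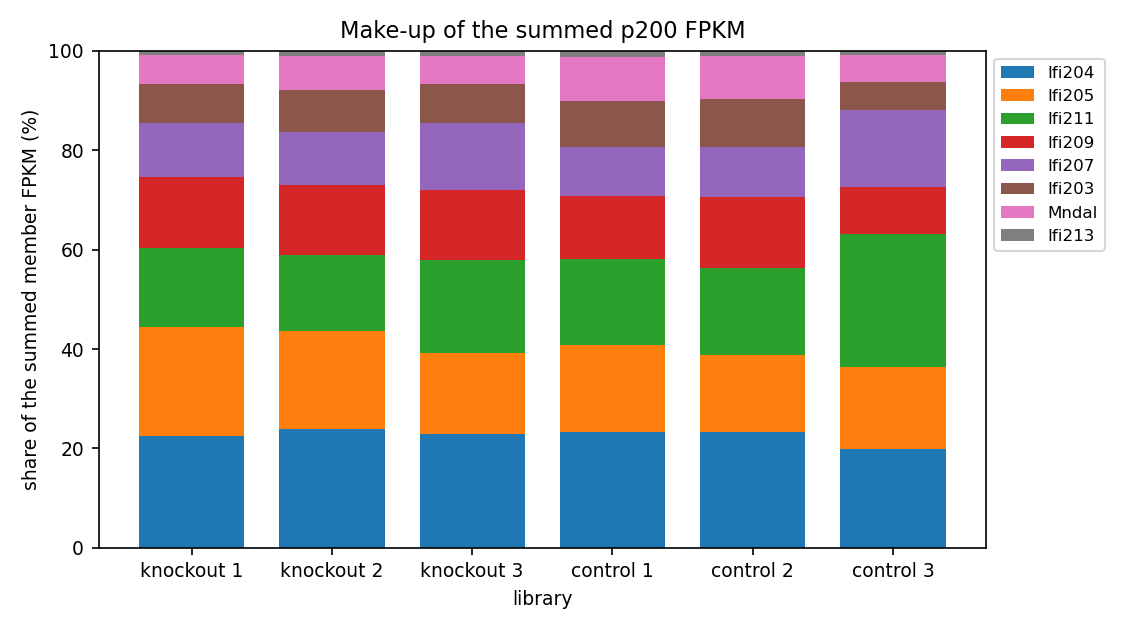
Share of each member in the summed FPKM of the 8 members, in percent, as stacked bars for the 6 libraries. Control 3 differs from the other libraries by a larger share of Ifi211 (26.8%) and Ifi207 (15.5%).

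Members share sequence, which bears on how far reads could be told apart. In GENCODE vM21 transcripts, 72.9% of the 50-base stretches of the longest coding transcript of Ifi211 also occur in another p200 gene, 49.6% of those of Ifi205 and 34.7% of those of Ifi209, the last with Ifi214. The share was 29.9% for Ifi204, 27.9% for Ifi213, 27.2% for Mndal, 10.6% for Ifi203 and 5.31% for Ifi207. Ifi207, the member with the call, thus shared the least with the p200 genes compared. Of its 150-base stretches 0 were shared, against 46.4% for Ifi211 and 36.1% for Ifi205. Only the listed p200 genes and the pseudogene Ifi203-ps were compared, and not the other transcripts. The read length and the handling of reads with several matches are not given in the sources used here, and the levels of Ifi211 and Ifi205 are uncertain for this reason.

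Of 8 further names listed as p200 relatives, 5 had rows. Pydc3, Pydc4 and Pydc5 had none, and RefSeq gives Pydc3 as another name of Ifi208 and Pydc4 as another name of Ifi213. Limma called 0 of the 4 relatives tested, beside 2.57% higher and 4.74% lower over all genes tested, and voom called 0. An unadjusted p below 0.05 was reached by 2, and by 27.6% of all genes tested. The replicate block called 2 higher, beside 3.90% of all genes tested. Aim2 measured 10.2, 11.6 and 8.16 FPKM in knockout 1 to 3 and 6.64, 6.78 and 3.73 FPKM in control 1 to 3. Its groups did not overlap, and the log2 fold change was 0.74 (SE 0.23, limma adjusted p 0.0944 and 0.0332 with the block). Aim2 shared no 50-base stretch with the other p200 genes. Ifi206 measured 62.9, 61.9 and 34.8 FPKM in knockout 1 to 3 and 41.2, 24.2 and 10.8 FPKM in control 1 to 3, and the log2 fold change was 1.17 (SE 0.46, limma adjusted p 0.154 and 0.0313 with the block). Knockout 3 lay under control 1 in Ifi206, as it did in Ifi204 and Ifi205. Ifi208 measured 6.85 to 12.7 FPKM in the knockout libraries and 1.67 to 11.0 FPKM in the controls, and the log2 fold change was 0.72 (limma adjusted p 0.420). Without control 3 the log2 fold changes of the tested relatives were 0.68 (Ifi206), 0.50 (Aim2), 0.06 (Ifi208) and -0.55 (Ifi214). Ifi214 was the relative with no shift to higher values, at 4.69, 3.62 and 2.51 FPKM in knockout 1 to 3 and 5.33, 5.91 and 1.22 FPKM in control 1 to 3. Its log2 fold change was -0.02 (SE 0.43, adjusted p 0.977 from limma) and turned positive under 6 of 13 other settings, the rescaling by the median of ratios among them. Ifi202b, a HIN protein without a pyrin domain known to hold back Aim2, stayed under the filter with 2 reads in control 3 and 12 reads in knockout 1, and was not tested. The promoter windows of Ifi206, Ifi208 and Ifi214 held the ISRE core, overlapped by the ETS core as in Ifi213. Those of Aim2, which held the ETS core, and Ifi202b did not hold the ISRE core.

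On the chromosome, in the gene order of RefSeq, Ifi208 and Ifi202b were the listed genes between the outermost members, and 10 listed genes were taken on each side. Limma and voom called 0 of the 1 tested gene inside, of the 6 on the side of Ifi213 and of the 5 on the side of Ifi205. An unadjusted p below 0.05 was reached by 3 genes, all on the side of Ifi213, and by 27.6% of all genes tested. The 3 genes were the relatives Aim2 and Ifi206 and, outside the family, Slamf8, named after its values were seen, with a log2 fold change of 1.07 and an adjusted p of 0.0557 from limma. The submitters' processing notes name mm9, so the coordinates of the promoter windows, from GRCm38.p6, are not those of the deposited values.

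The genes that make and relay the interferon signal were set beside the members. Of 15 genes listed for interferon induction and signalling, 14 were tested. Of these, 2 were called higher and 0 lower, beside 2.57% and 4.74% of all genes tested. Their median log2 fold change was 0.29, against -0.11 over all genes tested. Irf1, a transcription factor induced by interferons, measured 187, 180 and 162 FPKM in knockout 1 to 3 and 75.3, 65.6 and 76.7 FPKM in control 1 to 3. Its log2 fold change was 1.27 (SE 0.13, adjusted p 0.00651 from limma), and unlike the members it was not low in control 3. Stat2, a subunit of ISGF3, measured 98.8, 84.6 and 75.6 FPKM in knockout 1 to 3 and 51.2, 36.5 and 23.3 FPKM in control 1 to 3, and the log2 fold change was 1.26 (SE 0.27, limma adjusted p 0.0383). The call of Irf1 was lost without knockout 1 (adjusted p 0.0519 from limma) or control 2 (0.0551). That of Stat2 was lost under the same 7 settings as Ifi207, among them without knockout 1 (0.154), knockout 2 (0.149), knockout 3 (0.0663) or control 2 (0.147). Usp18, an inhibitor of receptor signalling, and Irf7, which drives interferon-alpha genes, had log2 fold changes of 1.21 and 1.08 (adjusted p 0.126 and 0.160 from limma), and both were lowest in control 3. At the other end stood the receptor chain Ifnar2, at 28.2 to 31.8 FPKM over the 6 libraries (log2 fold change 0.01, adjusted p 0.950 from limma). The gene left out by the filter was Ifnb1, which encodes interferon beta, at 0.587, 0.831 and 1.14 FPKM in knockout 1 to 3 and 0.197, 0.200 and 0.215 FPKM in control 1 to 3. It was named after its values were seen and was not tested.

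Interferon-stimulated genes outside the family were also lowest in control 3 among the controls. Of 25 listed, 23 were tested, and limma called 0 in either direction, beside 2.57% higher and 4.74% lower over all genes tested. An unadjusted p below 0.05 was reached by 15, as it was by 27.6% of all genes tested. All 23 had a positive log2 fold change, with a median of 0.95, and control 3 was the lowest control library in all 23. Voom called 0, beside 298 higher and 291 lower of all 9030 genes tested. The replicate block called 10 higher, beside 3.90% of all genes tested. Without control 3, 6 were called higher, beside 5.68% of all genes tested. Among these 6 were Rsad2 (adjusted p 0.0322 from limma), Irgm1 (0.0396) and Oas1a (0.0434). Rsad2, which encodes the antiviral protein viperin, measured 2586, 3103 and 1751 FPKM in knockout 1 to 3 and 1227, 1025 and 357 FPKM in control 1 to 3 (log2 fold change 1.66, SE 0.46, adjusted p 0.0724 from limma and 0.0210 with the block). The other genes with the smallest p were Oas1a (0.73, 0.0509), Xaf1 (0.90, 0.0617) and the GTPase Irgm1 (0.97, 0.0768), each with its log2 fold change and limma's adjusted p. With the block, the adjusted p was 0.0332 for Oas1a, 0.0309 for Xaf1 and 0.0485 for Irgm1. Oasl1 had the largest p of the list (0.45, 0.457), and without control 3 its log2 fold change was 0.03 (adjusted p 0.932 from limma). The median log2 fold change was 0.97 for the p200 members and 0.95 for these genes, and 0.49 and 0.58 without control 3, and no test between the lists was made.

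**Figure D5:**
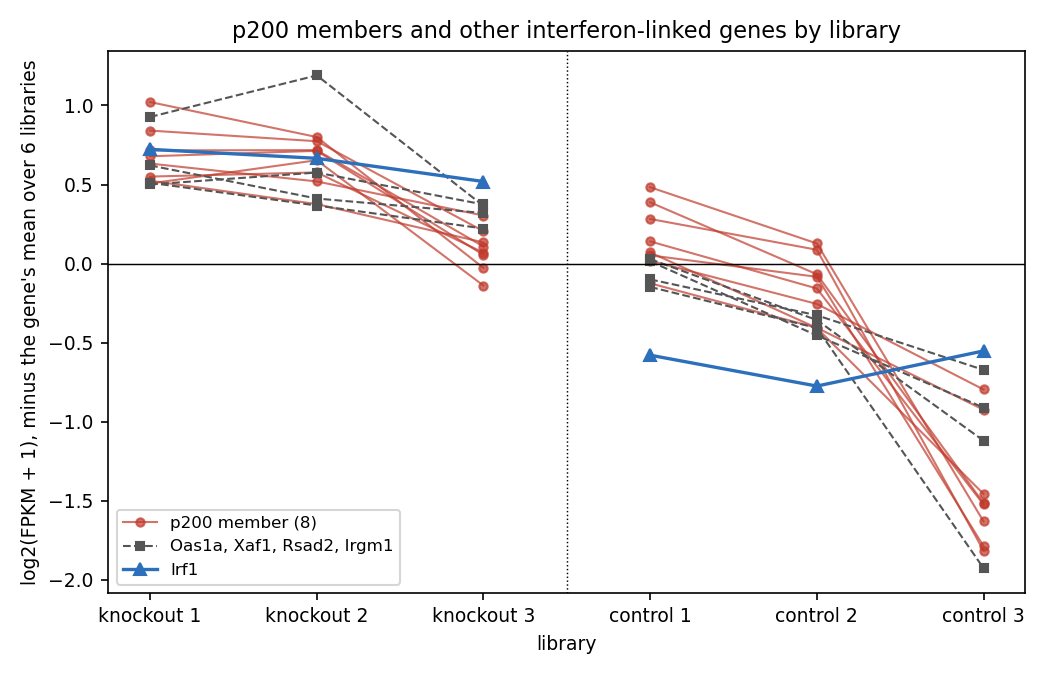
Log2(FPKM + 1) minus the mean of each gene over the 6 libraries, for the 8 members (red), the 4 interferon-stimulated genes Oas1a, Xaf1, Rsad2 and Irgm1 (grey, dashed) and Irf1 (blue). Lines join the values of 1 gene within a group and imply no order of the libraries. Members and interferon-stimulated genes are lowest in control 3, and Irf1 is not.

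Partners of the family in DNA sensing were also listed. Of 13 genes, 12 were tested, with a median log2 fold change of 0.13. Limma and voom called 0, beside limma's 2.57% higher and 4.74% lower over all genes tested. An unadjusted p below 0.05 was reached by 1, and by 27.6% of all genes tested. The replicate block called 1 higher, beside 3.90% of all genes tested. The gene in question was Cgas, the enzyme that makes the messenger cGAMP on cytosolic DNA, at 12.4, 12.3 and 9.16 FPKM in knockout 1 to 3 and 5.97, 7.20 and 2.76 FPKM in control 1 to 3. Its groups did not overlap (log2 fold change 1.02, SE 0.29, adjusted p 0.0769 from limma, 0.0277 with the block and 0.0421 without control 3). Zbp1, a sensor of Z-form nucleic acid, Il18, a cytokine matured by inflammasomes, and Sting1, the receptor of cGAMP, had log2 fold changes of 0.83, 0.90 and 0.32 (adjusted p 0.209, 0.275 and 0.435 from limma). Without control 3 their log2 fold changes were 0.40, 0.30 and 0.17. Pycard, the ASC adaptor on which Aim2 relies, measured 10.3, 10.1 and 13.0 FPKM in knockout 1 to 3 and 14.7, 12.6 and 7.67 FPKM in control 1 to 3. Its log2 fold change was -0.03 (95% interval -0.58 to 0.52, adjusted p 0.947 from limma), with a positive sign after rescaling by the median of ratios.

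Likeness was measured as Pearson's r over the 6 libraries between log2(FPKM + 1) of a gene and the mean standardized value of the 8 members. Among the members r ran from 0.939 for Ifi207 and 0.952 for Mndal to 0.9995 for Ifi204. Each member is part of the mean it was set against, so its r is high by construction. For the tested relatives, which are not part of it, r was 0.987 (Ifi206), 0.962 (Aim2), 0.955 (Ifi208) and 0.685 (Ifi214). The 5 genes outside the family with the highest r were Psmb10, Tor1aip1, Aida, Ythdf1 and Tmem67, with r from 0.996 to 0.9998. Psmb10, a subunit of the immunoproteasome, measured 122, 121 and 94.4 FPKM in knockout 1 to 3 and 96.2, 82.3 and 48.0 FPKM in control 1 to 3. With 6 libraries and 9030 genes some genes reach such values, and the points share library and group.

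Marker genes of several cell types differed between the groups too. Timd4, the targeted gene, was at 0.334, 0.394 and 0.246 FPKM in knockout 1 to 3 and 19.5, 12.1 and 1.19 FPKM in control 1 to 3, which goes with the titles and against the genotype entry. Its log2 fold change was -2.66 (adjusted p 0.0715 from limma), and -3.63 (0.000410) without control 3. Lyz2, at whose locus LysM-Cre sits, was at 41.4, 4656 and 106 FPKM in knockout 1 to 3 and at 7090 to 8482 FPKM in the controls, so knockout 2 stood apart in Lyz2, while in the p200 members the lowest knockout library was knockout 3. All 7 macrophage markers were detected, with a summed level of 2621 to 2876 FPKM in the knockout libraries and 2194 to 2665 FPKM in the controls, a sum in which Cd68 was the largest term (1642 ± 61.1 FPKM against 1091 ± 282, SD, n = 3). Fcgr1 was called higher, and 4 of the 7 had a negative log2 fold change. Among these, Csf1r (-0.71, adjusted p 0.0903 from limma) and Cd14 (-0.73, 0.0631) had every knockout library below every control library. For large peritoneal macrophages 3 of 6 tested markers were called lower, Prg4 (3.09 ± 0.836 FPKM in the knockout and 71.4 ± 41.8 in the control libraries, SD, n = 3), Alox15 (0.201 ± 0.128 against 1.88 ± 0.756) and Icam2 (0.763 ± 0.195 against 2.71 ± 0.881). The summed levels of 383 to 485 and 374 to 503 FPKM were carried by Cd9 (378 to 477 against 256 to 411 FPKM), the tested marker with a positive log2 fold change, and Gata6 was at or under 1.07 FPKM in each library. For small or monocyte-derived macrophages Irf4 and Retnla were called lower and Mrc1 higher, of 7 tested, with summed levels of 548 to 1328 and 1000 to 5726 FPKM.

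Markers of B cells and mast cells were lower in the knockout libraries. All 6 tested B cell markers were called lower (summed level 2.90 to 5.77 FPKM in the knockout and 30.2 to 122 FPKM in the control libraries, with Cr2 at 0 in each knockout library), as were 5 of 5 tested mast cell markers (1.89 to 2.27 against 38.2 to 49.3 FPKM). Of the tested markers, 1 of 2 for T cells (1.07 to 1.72 against 2.68 to 10.7 FPKM) and 2 of 5 for neutrophils (71.2 to 201 against 195 to 459 FPKM) were called lower. The 1 tested dendritic cell marker, Ccr7, and the 3 for mesothelial cells and fibroblasts had 0 calls by limma, with summed levels of 2.61 to 6.46 against 7.69 to 11.3 FPKM and 11.3 to 30.1 against 2.11 to 12.0 FPKM. Voom called lower 2 of the 6 B cell, 5 of 5 mast cell, 0 of 2 T cell and 1 of 5 neutrophil markers, and 2 of the 6 for large peritoneal macrophages. With the replicate block, 4 of the 5 mast cell markers were called lower, all but Kit. The block also called the fibroblast collagens Col1a1 and Col1a2 higher, as 2 of the 3 tested markers of that list. Without control 3, 1 of these 3 was called higher. Control 3 was the lowest control for the 8 members and for 26.6% of all genes tested. Among the tested markers this was so for 6 of 6 of B cells, 2 of 2 of T cells, 5 of 6 of large peritoneal and 6 of 7 of small or monocyte-derived macrophages, 4 of the 7 general macrophage markers, 1 of 5 of neutrophils and 0 of 5 of mast cells, and for 0 of the 4 others. Their part in the values of Ifi207 and the other members was not tested, and in these bulk samples fewer cells of a type and less RNA per cell cannot be told apart.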

How the data were processed

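RNA of peritoneal macrophages was sequenced in 3 knockout and 3 control libraries, grouped by title. The authors deposited 1 table with FPKM values per library, made from each gene's reads scaled to its length and to the library total, and a signal column per group, the mean of counts divided by the size factors of DESeq2. Its fold change, p-value and q-value columns hold the authors' own comparison and were not used, and 0 per-sample columns were left unused. The submitters' processing notes name mm9. The aligner, counter, annotation and read length are not given in the sources used here. Reads per gene were worked back from FPKM together with these group columns. They came out within 0.05 of a whole number for 100% of values under 2000 reads, and gave 36170767 to 42217558 reads per library.

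Log2(FPKM + 1) was fitted over the 9030 genes that averaged 1 FPKM or more in either group, with limma 3.58.1 in R 4.3.3 (lmFit and eBayes with a trend), after a design set for values per library in which the 2 groups were compared without a block. Adjusted p-values are Benjamini-Hochberg values over all genes tested, with a threshold of 0.05. Fold changes on this scale understate the change of low genes. The fits were also run on simulated data with larger fold changes than those of the members and no deviating library. That run does not show how the fits perform on changes of this size or with a library such as control 3. Exact permutation tests were two-sided. In all, 12 alternatives were planned (pseudocount of 0.1, no filter, at least 10 reads in every library, replicate block, rescaling by the median of ratios, voom on the recovered reads, and leaving out each of the 6 libraries), and 1 was added after seeing the data, without replicate 3 of both groups.

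Same-numbered libraries were checked for pairing by the correlation of their deviations from the group means over all genes tested, which was 0.109 for replicate 1, 0.110 for replicate 2 and 0.304 for replicate 3, and between -0.332 and 0.291 for other pairs. By a limit of 0.1 set for this check the numbers were taken as pairs, and nothing in the labels says what a number marks. The values for replicates 1 and 2 lay below the highest of the other pairs, so the check does not establish pairing.

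The members and lists were chosen with earlier results of these data known. Values were given for all members and listed relatives, and for each list of interferon induction and signalling, interferon-stimulated and DNA sensing genes the 4 genes with the smallest and the 1 with the largest adjusted p were named. Promoter windows came from RefSeq (GRCm38.p6) and transcripts from GENCODE vM21, which share no build with the deposited values, so that the reference gave names, gene order and sequence only.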

Additional observations from a re-analysis of the deposited data

How the results depend on the processing

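All 8 members kept a positive log2 fold change under the 13 alternatives. The count of members called higher was 1, and it was 0 with no filter on low values, after rescaling by the median of ratios and with voom, 5 with the replicate block and 4 without replicate 3 of both groups. It ranged from 0 to 1 when 1 library was left out. At an unadjusted p below 0.05, 5 members had passed in the limma fit. The count of members called lower was 0 under each alternative. Among all genes tested, 660 were called, from 8 without control 2 to 1278 without control 3, and 1369 without replicate 3 of both groups.

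The log2 fold change of Ifi214 turned positive with a pseudocount of 0.1 (0.038), after rescaling (0.080), with voom (0.20), and without knockout 3, control 1 or control 2, with a range of -0.55 to 0.27 over the libraries left out. Pycard turned positive after rescaling (0.10), with voom (0.12), and without knockout 1, knockout 2, control 1 or control 2, with a range of -0.28 to 0.15. Ifnar2 turned negative without knockout 1, control 2 or control 3, with a range of -0.016 to 0.067, and without replicate 3 of both groups (-0.020). The cause was not tested. With the block, the calls gained among the named genes were those of Ifi204, Ifi205, Ifi209, Ifi211, Aim2, Ifi206, Usp18, Cgas, Oas1a, Xaf1, Rsad2, Irgm1, Timd4, Col1a1 and Col1a2, and that of Kit was lost. The pairing of libraries behind the block is assumed. Every member had at least 1120 reads in each library, and each group had 3 libraries.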
